A study of Mus musculus with 12 samples.

Results

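Retinoid handling in the intestinal epithelium was followed via 5 genes, Rbp2, Rbp7, Aldh1a1, Bco1 and Lrat, which were matched by symbol among the 32285 genes counted in single-cell RNA sequencing (scRNA-seq) of mouse small intestinal organoids. All 5 were found, and each had a single row. Rbp2 had been selected on measured values, namely for its difference between co-cultures with and without anti-IFNγ. The values of Rbp2 in comparisons that involve Treg cells alone, Treg cells plus anti-IFNγ or the interaction of both antibodies are therefore given as a description without a test.

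Organoids are cultures of intestinal epithelium that grow from crypts and contain stem, proliferating, absorptive and secretory cells. The organoids were derived from BALB/c mice of wild-type genotype and were exposed for 4 days to 1 of 6 conditions: medium alone (control), CD25high FoxP3-GFP+ Treg cells, Treg cells plus anti-IFNγ, Treg cells plus anti-IL-10R, Treg cells plus both antibodies, or rIFNγ plus rIL-10 without T cells. Treg cells were allogeneic, were sorted from spleens of FoxP3-GFP reporter mice, were added at 100000 cells per well with 30 U/mL IL-2 and CD3/CD28 beads, and were kept from touching the organoids by tilting the plates. Antibodies were used at 10 µg/mL, rIFNγ at 0.25 ng/mL and rIL-10 at 10 ng/mL, and all groups shared a medium with B27 supplement, EGF, Noggin and R-spondin-1. Live EpCAM+ cells of all 6 groups were hashed and pooled into the same libraries. Each of 3 replicates thus contributed 1 sum of UMIs (unique molecular identifiers, that is, counted transcripts) per group and cell class. Because recombinant IFNγ and IL-10 were given together, their separate effects cannot be told apart.

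Vitamin A reaches the enterocyte as retinol or as carotenoids. Bco1 cleaves β-carotene to retinal. Rbp2, the cellular retinol-binding protein of the absorptive enterocyte, carries retinol and retinal in the cytoplasm, and Lrat esterifies retinol to retinyl esters, which leave the cell in chylomicrons. Aldh1a1 oxidizes retinal to retinoic acid, the ligand of nuclear retinoic acid receptors. Rbp7 belongs to the same family of cellular retinol-binding proteins as Rbp2. In the small intestine, this pathway is a marker of absorptive differentiation and supplies retinoic acid for local immune regulation.

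The 5 genes lie on different chromosomes. In the GENCODE annotation of GRCm38, Rbp2 (ENSMUSG00000032454) was located at chr9:98486115-98509781 on the plus strand, Rbp7 (ENSMUSG00000028996) at chr4:149449687-149454978 on the minus strand and Aldh1a1 (ENSMUSG00000053279) at chr19:20492715-20643465 on the plus strand. Bco1 (ENSMUSG00000031845) was located at chr8:117095854-117133720 on the plus strand and Lrat (ENSMUSG00000028003) at chr3:82892579-82903973 on the minus strand. Aldh1a7 (ENSMUSG00000024747), a closely similar paralog of Aldh1a1, lies next to it at chr19:20692953-20727562 on the minus strand. Reads that fit both genes may have affected the counts of this pair, and the values of both are uncertain to that extent.

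The 250 bases upstream of the transcription start (RefSeq, GRCm38.p6) are shown for 4 genes because these windows were searched for letters bound by factors that act downstream of interferon and of nuclear receptors. The first motif was TTCNNNGAA, the STAT-type site, the second was GAAANNGAA, the core of the interferon-stimulated response element, and the last was AGGTCA, the half-site of nuclear receptors. All were searched on both strands from 250 bases before to 50 bases after the start. Capitals mark matches, which occurred only for AGGTCA and only on the minus strand (TGACCT as printed), at position -58 upstream of Rbp2 (chr9:98490287-98490536, plus strand) and at -56 and -49 upstream of Bco1 (chr8:117095615-117095864, plus strand). The RefSeq start of Rbp2 lies inside the GENCODE gene.
Rbp2: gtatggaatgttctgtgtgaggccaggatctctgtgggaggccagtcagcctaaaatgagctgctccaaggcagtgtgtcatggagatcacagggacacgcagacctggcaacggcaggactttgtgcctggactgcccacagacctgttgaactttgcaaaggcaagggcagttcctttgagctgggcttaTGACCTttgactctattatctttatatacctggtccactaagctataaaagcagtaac
Bco1: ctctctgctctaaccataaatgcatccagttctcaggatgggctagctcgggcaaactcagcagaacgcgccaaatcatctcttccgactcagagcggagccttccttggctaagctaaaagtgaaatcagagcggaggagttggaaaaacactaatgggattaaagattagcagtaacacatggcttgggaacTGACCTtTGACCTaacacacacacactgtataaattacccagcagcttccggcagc
Rbp7: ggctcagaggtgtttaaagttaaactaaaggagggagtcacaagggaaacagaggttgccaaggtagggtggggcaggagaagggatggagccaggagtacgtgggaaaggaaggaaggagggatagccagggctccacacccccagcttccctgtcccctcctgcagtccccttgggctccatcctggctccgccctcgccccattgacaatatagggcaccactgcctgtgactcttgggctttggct
Lrat: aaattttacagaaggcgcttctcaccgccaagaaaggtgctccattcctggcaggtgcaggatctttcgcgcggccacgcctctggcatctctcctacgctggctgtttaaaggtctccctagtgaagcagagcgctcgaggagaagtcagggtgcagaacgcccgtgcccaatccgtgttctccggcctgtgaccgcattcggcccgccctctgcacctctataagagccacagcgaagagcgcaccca
The windows of Rbp7 (chr4:149454969-149455218, minus strand) and Lrat (chr3:82903975-82904224, minus strand) held no match. The same was true of both entries for Aldh1a1, which are not printed. Of 32851 promoter windows, 16.3% held AGGTCA, 8.3% held TTCNNNGAA and 8.56% held GAAANNGAA. A chromosome that holds none of these genes was left out of this count. A match is a description of letters and not a binding site.

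After hashtag assignment and the limits on cells, 11506 cells were kept, 1733 of them from control organoids. Control cells formed 14 clusters, whose classes were passed on to the cells of every group by similarity. Expression of interferon, antigen presentation and retinoid genes was not used for this. Cluster 0 (1702 cells after assignment) carried the highest enterocyte markers and is called late absorptive. Its leading genes nevertheless contained 3 markers of enterocyte progenitors and none of the enterocyte list, so that late and early only order absorptive cells by marker level. Early absorptive cells numbered 949, TA-like cells 3856, ISC-like cells 3466 and secretory cells 725 (goblet/Paneth-like and endocrine-like cells pooled, because 10 of 18 goblet/Paneth-like sums had fewer than 10 cells). TA denotes transit-amplifying cells and ISC intestinal stem cells. A further 808 cells, assigned to cluster 5, were left unnamed. They count in the sums over all cells and in the total behind each share, but in no class. The 18 sums held 14958337 to 42068436 UMIs over all cells and 1704998 to 8549676 UMIs in late absorptive cells. The median number of UMIs per barcode before filtering was 23345 and 27317 in the 2 libraries of replicate 2 and 3485.5 to 4427 in the 3 libraries of replicates 1 and 3. The libraries shared 9 to 24 cell barcodes per pair. Interferon target genes served as a check of the labels. The summed level of the 12 genes in late absorptive cells was 63.6 to 90.7 CPM (UMIs of a gene per 1000000 UMIs of the sum) in control, 208.9 to 777 CPM with Treg cells, 60.6 to 72.8 CPM with Treg cells plus anti-IFNγ and 2698 to 4011 CPM with rIFNγ plus rIL-10. This level was 268.9 to 974.7 CPM with Treg cells plus anti-IL-10R and 62.3 to 81.4 CPM with Treg cells plus both antibodies. The summed level of 8 T cell genes over all cells stayed between 0 and 0.423 CPM, except for Treg cells plus anti-IL-10R, where it reached 10.7 CPM.

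Rbp2 and Aldh1a1 had the highest levels in late absorptive cells of control organoids and declined toward ISC-like cells. Rbp7 was shared by absorptive and, unevenly, TA-like cells, and Lrat had a similar level in all of these classes. The levels are described without a test because classes were drawn from the same cells. Rbp2 was at 4872, 4582 and 7916 CPM in late absorptive cells and at 1502, 1185 and 1704 CPM in early absorptive cells. TA-like cells contained 664, 338 and 629 CPM and ISC-like cells 66.4, 51.1 and 75.4 CPM, so that none of these 4 classes overlapped. The TA-like level was uneven. Control cluster 3, a proliferating TA-like cluster with absorptive markers, averaged 1136 CPM of Rbp2, and the other TA-like clusters 126 to 319 CPM. Secretory cells, at 85.6, 179.3 and 62.2 CPM, overlapped with ISC-like cells.

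**Figure D1:**
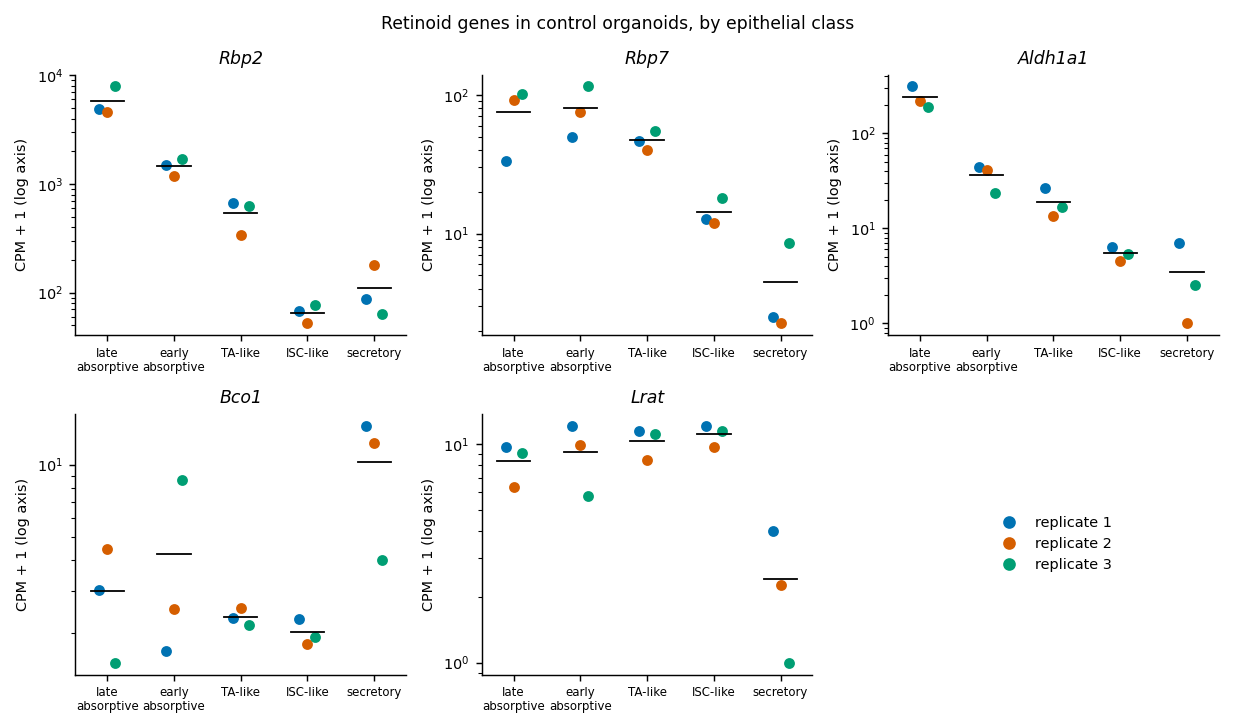
CPM plus 1 on a log axis for each gene (panels) in control organoids by epithelial class. Each point is 1 of 3 replicates and the horizontal line is their mean. Rbp2 and Aldh1a1 fall from late absorptive to ISC-like cells, Lrat lies within a narrow range outside secretory cells, and Bco1 is highest in secretory cells in replicates 1 and 2.

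Rbp7, which encodes the second retinol-binding protein of the set, was similar in late absorptive (32.2, 90.8 and 100.4 CPM) and early absorptive cells (48.9, 73.8 and 114 CPM), with ranges that overlapped. TA-like cells held 39.0 to 54.1 CPM, ISC-like cells 10.9 to 17.1 CPM and secretory cells 1.25 to 7.59 CPM. Among TA-like clusters of control cells, cluster 3 averaged 80.3 CPM of Rbp7 and 42.9 CPM of Aldh1a1. The other TA-like clusters held 22.0 to 40.6 CPM of Rbp7 and 5.99 to 9.71 CPM of Aldh1a1. Aldh1a1 was at 312, 220.2 and 188 CPM in late absorptive, 22.8 to 43.4 CPM in early absorptive, 12.6 to 25.8 CPM in TA-like (which overlapped with early absorptive) and 3.58 to 5.36 CPM in ISC-like cells. In secretory cells it ranged from 0 to 6.003 CPM, a range that included that of ISC-like cells.

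Lrat, the retinol esterifying enzyme, did not follow this order. Its level was 8.70, 5.36 and 8.08 CPM in late absorptive, 11.03, 8.84 and 4.75 CPM in early absorptive, 10.49, 7.40 and 10.1 CPM in TA-like and 11.1, 8.68 and 10.4 CPM in ISC-like cells. These 4 ranges overlapped. Secretory cells contained 0 to 3.00 CPM, with 3 UMIs in total. Bco1, the carotene cleavage enzyme, was sparse. It reached 13.5, 11.3 and 3.04 CPM in secretory cells, where the endocrine-like control cluster held 17.8 CPM, compared with 0.505 to 3.45 CPM in late absorptive, 1.16 to 1.54 CPM in TA-like and 0.805 to 1.295 CPM in ISC-like cells. Early absorptive cells ranged from 0.689 to 7.61 CPM. Only 15 to 44 UMIs of Bco1 were counted per class over the 3 control replicates.

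The response to cytokines was examined next. With rIFNγ plus rIL-10, Lrat fell in all 4 classes in which it could be tested, Rbp7 rose in absorptive and TA-like cells and fell in ISC-like cells, and Aldh1a1 fell in late absorptive and TA-like cells. Rbp2 fell in ISC-like cells and, by a small amount, in late absorptive cells. Sums were compared with edgeR's quasi-likelihood test with the replicate as a block, and a gene was called at an adjusted p under 0.05 over all genes tested. Of the 5 genes, 4 were called in late absorptive cells, where 25.2% of all tested genes were called. In early absorptive cells, 2 of 4 were called (10.2% of all genes), in TA-like cells 3 of 5 (25.3%), in ISC-like cells 3 of 5 (23.2%) and in secretory cells 0 of 2 (1.12%). In secretory cells, neither gene had an unadjusted p under 0.05 in edgeR or DESeq2, and DESeq2 also called 0. In late absorptive cells, DESeq2 called only Aldh1a1 and Lrat, and in early absorptive cells it called none of these genes.

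**Figure D2:**
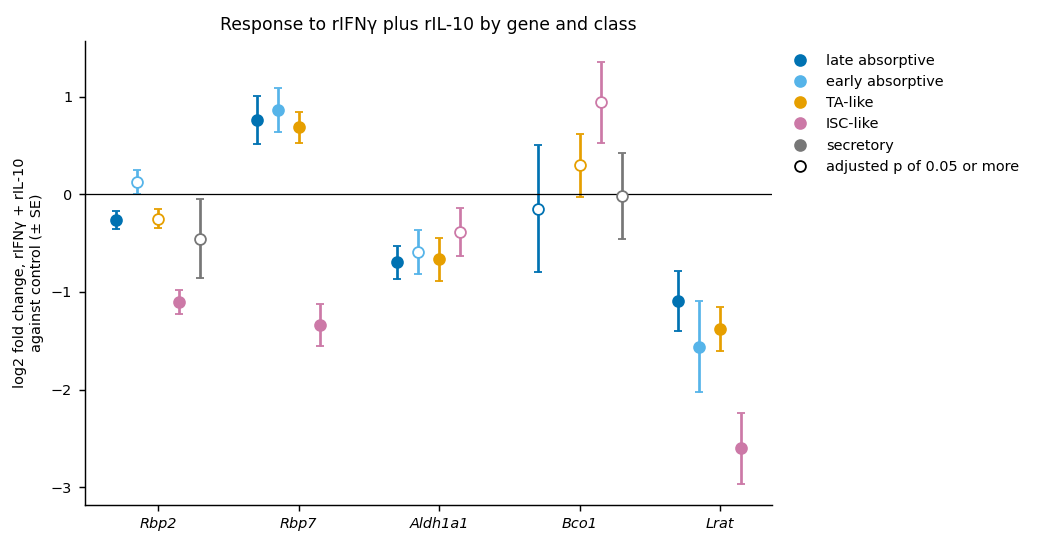
Log2 fold change of each gene (x axis) with rIFNγ plus rIL-10 against control (y axis, ± SE) in 5 classes (colors). Filled points passed an adjusted p of 0.05 in edgeR and open points did not, and a missing point was not tested. Lrat lies below 0 in all 4 tested classes, and Rbp7 lies above 0 in 3 classes and below 0 in ISC-like cells.

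Rbp2 in late absorptive cells was at 4872, 4582 and 7916 CPM in control and at 4310, 3590 and 6952 CPM with cytokines in replicates 1, 2 and 3. It was lower in each replicate, although the ranges of both groups overlapped because replicate 3 was high in both. The log2 fold change was -0.27 ± 0.093 (SE, n = 3, edgeR adjusted p = 0.040), a 1.20-fold decrease. This call was lost without replicate 2 (log2 fold change of -0.20, adjusted p = 0.19), without replicate 3 (-0.28, adjusted p = 0.088) and when control cells were clustered at a Leiden resolution of 0.5 (-0.079, adjusted p = 0.54). It was also lost with DESeq2 and without the replicate block, so that 5 of 10 alternatives kept it. In early absorptive cells, the log2 fold change was 0.13 ± 0.12 (adjusted p = 0.60, 95% interval -0.11 to 0.37). In TA-like cells, it was -0.25 ± 0.095 (adjusted p = 0.059), and 0.20 (adjusted p = 0.26) at a Leiden resolution of 0.5. Without the proliferating control cluster that also held absorptive markers, the log2 fold change of Rbp2 was -0.35. Rbp2 was itself among the leading genes of that cluster, so this value is a description and not a test.

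ISC-like cells showed the largest change of Rbp2 among the classes in which it was called. The level was 66.4, 51.1 and 75.4 CPM in control and 19.7, 28.1 and 38.6 CPM with cytokines. The 3 control values all exceeded the 3 treated values. The log2 fold change was -1.10 ± 0.12 (edgeR adjusted p = 5.1e-07), a 2.15-fold decrease. However, the control level of Rbp2 in ISC-like cells was not above that of secretory cells (62.2 to 179.3 CPM). Each library held cells of all 6 groups and classes, so that free RNA was shared within a library, and its part in these low values was not tested. Assignment returned 83.2% of control cells to their own class, and the part of misassigned cells was not tested either. At a Leiden resolution of 0.5, the ISC-like log2 fold change was -0.17 (adjusted p = 0.28).

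Rbp7 in late absorptive cells rose from 32.2, 90.8 and 100.4 CPM to 110.5, 74.8 and 176 CPM. Replicates 1 and 3 increased and replicate 2 decreased. The log2 fold change was 0.76 ± 0.24 (edgeR adjusted p = 0.026), and it was 0.22 (adjusted p = 0.54) without replicate 1, 0.77 (adjusted p = 0.16) without replicate 3 and 1.28 (adjusted p = 0.00028) without replicate 2. DESeq2 and the fit without the replicate block did not call it, and 6 of 10 alternatives kept the call. Early absorptive cells went from 48.9, 73.8 and 114 CPM to 114, 93.6 and 248 CPM, with an increase in each replicate (log2 fold change of 0.86 ± 0.23, edgeR adjusted p = 0.015). Without replicate 1 the adjusted p was 0.099, and without replicate 3 it was 0.087. DESeq2 and the fit without the replicate block did not call Rbp7 there either, and 5 of 9 alternatives kept the call. In TA-like cells, Rbp7 changed from 45.4, 39.0 and 54.1 CPM to 96.1, 43.8 and 82.4 CPM, which was also higher in each replicate (0.69 ± 0.16, edgeR adjusted p = 0.0035). The log2 fold change was 0.39 (adjusted p = 0.031) without replicate 1 and 0.69 (adjusted p = 0.059) without replicate 3. It was 0.34 (adjusted p = 0.14) with only hashtag doublets removed and 0.45 (adjusted p = 0.052) with wider limits on cells. Without the proliferating cluster that held absorptive markers, it was 0.37. Rbp7 was higher in that cluster than in the other TA-like clusters, so this value is a description and not a test.

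In ISC-like cells, Rbp7 had the opposite direction. It fell from 11.7, 10.9 and 17.1 CPM to 4.00, 4.04 and 8.16 CPM, without overlap (log2 fold change of -1.33 ± 0.21, edgeR adjusted p = 6.5e-05). This direction depended on how the classes were drawn, since ISC-like cells at a Leiden resolution of 0.5 gave 0.45 (adjusted p = 0.086).

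Whether the response differed between classes was tested with both classes in one edgeR fit for 3 pairs of classes. This test was added after the values had been seen. The Rbp7 response was 2.11 ± 0.44 log2 units higher in late absorptive than in ISC-like cells (adjusted p = 0.0016) and 2.02 ± 0.36 higher in TA-like than in ISC-like cells (adjusted p = 0.0035). The Rbp2 response was 0.85 ± 0.17 higher in late absorptive (adjusted p = 0.00075) and 0.85 ± 0.18 higher in TA-like (adjusted p = 0.017) than in ISC-like cells. Of all genes, 14.1% differed between late absorptive and ISC-like cells and 0.756% between TA-like and ISC-like cells. At a Leiden resolution of 0.5, none of these 4 differences passed the threshold, with 0.40 for Rbp7 (adjusted p = 0.46) and 0.11 for Rbp2 (adjusted p = 0.71) between late absorptive and ISC-like cells. Late absorptive and TA-like cells differed by 0.089 ± 0.33 for Rbp7 (adjusted p = 0.93) and by 0.0071 ± 0.15 for Rbp2 (adjusted p = 1.00).

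**Figure D3:**
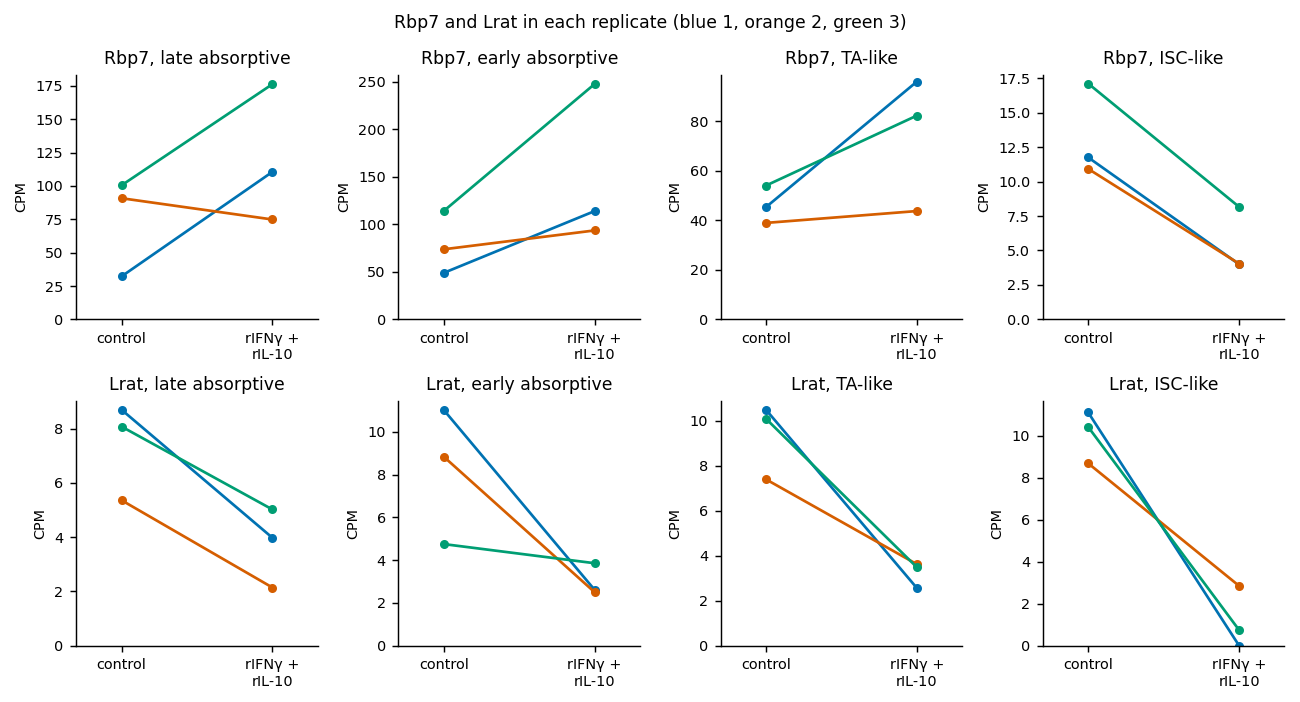
CPM of Rbp7 (upper row) and Lrat (lower row) in control and in rIFNγ plus rIL-10 for 4 classes (columns). Lines connect the same replicate (blue 1, orange 2, green 3). Lrat declines in every line, whereas Rbp7 rises in all lines of early absorptive and TA-like cells, falls in replicate 2 of late absorptive cells and falls in all lines of ISC-like cells.

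Lrat was lower with cytokines in each replicate of these 4 classes. In late absorptive cells, it fell from 8.70, 5.36 and 8.08 CPM to 3.98, 2.14 and 5.02 CPM (log2 fold change of -1.10 ± 0.31, edgeR adjusted p = 0.012). The treated values lay below the control values. Only 60 and 56 UMIs stood behind the control and treated sums, and the call was lost without replicate 1 or without replicate 2, with log2 fold changes of -1.06 (adjusted p = 0.16) and -1.002 (adjusted p = 0.050). In early absorptive cells, 11.03, 8.84 and 4.75 CPM became 2.61, 2.50 and 3.86 CPM (-1.56 ± 0.47, edgeR adjusted p = 0.032), a call that was lost without any 1 of the replicates (-1.87 to -1.31).

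More Lrat was counted in control TA-like and ISC-like cells. TA-like cells went from 10.49, 7.40 and 10.1 CPM to 2.56, 3.62 and 3.48 CPM (-1.38 ± 0.22, edgeR adjusted p = 0.00011), a 2.60-fold decrease with 287 and 94 UMIs. ISC-like cells went from 11.1, 8.68 and 10.4 CPM to 0, 2.85 and 0.742 CPM (-2.60 ± 0.36, edgeR adjusted p = 9.6e-06), with 262 UMIs in control and 21 UMIs with cytokines. Without replicate 2, the ISC-like value was -5.05. No overlap was seen in either class. The Lrat response differed between late absorptive and ISC-like cells by 1.52 ± 0.54 (adjusted p = 0.055).

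Aldh1a1 fell in late absorptive cells from 312, 220.2 and 188 CPM to 135.8, 163 and 149 CPM (log2 fold change of -0.69 ± 0.17, edgeR adjusted p = 0.0044), a 1.62-fold decrease. All treated values lay below all control values. Without replicate 1, the log2 fold change was -0.43 (adjusted p = 0.061). In TA-like cells, 25.8, 12.6 and 15.7 CPM became 9.84, 12.3 and 7.29 CPM (-0.67 ± 0.22, edgeR adjusted p = 0.031). Replicate 2 barely moved there, and the call was lost without replicate 1 (-0.36) or replicate 3 (-0.58). In early absorptive cells (-0.59 ± 0.23, adjusted p = 0.10) and ISC-like cells (-0.38 ± 0.25, adjusted p = 0.30), it did not pass the threshold. The neighboring paralog Aldh1a7 fell in all 4 of these classes, and in late absorptive cells it went from 24.1, 47.1 and 19.2 CPM to 5.61, 14.2 and 8.21 CPM (-1.76 ± 0.22, edgeR adjusted p = 8.6e-06).

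Bco1 was not called in any of the 4 classes in which it was tested (early absorptive cells had too few counts). Its log2 fold change was -0.15 ± 0.65 in late absorptive, 0.30 ± 0.32 in TA-like, 0.94 ± 0.42 in ISC-like and -0.014 ± 0.44 in secretory cells, with adjusted p-values of 0.91, 0.55, 0.11 and 1.00 in edgeR. In secretory cells, the treated replicates held 8.88, 7.06 and 12.5 CPM, within the range of the controls. The 95% interval was -1.42 to 1.13 in late absorptive, -0.33 to 0.93 in TA-like, 0.13 to 1.76 in ISC-like and -0.88 to 0.85 in secretory cells.

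When all cells were summed without regard to class, the response of Rbp2 and Aldh1a1 was not the one within late absorptive cells. Rbp2 was at 969, 643 and 1453 CPM in control and at 1767, 759 and 1425 CPM with cytokines (log2 fold change of 0.40 ± 0.18, edgeR adjusted p = 0.10), and Aldh1a1 showed a log2 fold change of -0.017 ± 0.16 (adjusted p = 0.95). In such sums, a change in the number of cells of a type and a change in RNA per cell cannot be told apart. The share of late absorptive cells was 14.4%, 9.28% and 15.8% in control and 36.2%, 16.4% and 17.0% with cytokines, which was 10.0 percentage points higher on average and higher in 3 of 3 replicates (exact permutation test, two-sided, p = 0.1, the smallest possible with 3 against 3). With the replicates paired, the exact permutation p was 0.25, also the smallest possible. Replicate 1 contributed most, and the difference was 4.15 percentage points without it. At a Leiden resolution of 0.5, the share was higher in 2 of 3 replicates (9.22 percentage points, exact permutation p = 0.2). The genes that define this class also changed with cytokines, so that the shares depend on how cells were assigned. ISC-like cells had a mean share of 31.9% in control and 16.0% with cytokines, and secretory cells 4.49% and 13.4%. Across all cells, 3 of the 5 genes were called (36.3% of all genes), namely Lrat (-1.68 ± 0.18, adjusted p = 2.1e-05), Rbp7 (0.80 ± 0.20, adjusted p = 0.0063) and Bco1 (0.59 ± 0.19, adjusted p = 0.026). The Rbp7 call was kept in 7 of 9 alternatives, with log2 fold changes of 0.43 to 1.095. Bco1 rose from 1.61, 1.64 and 1.56 CPM to 2.17, 2.10 and 3.28 CPM, and its call was lost without any 1 of the replicates (0.39 to 0.75). Bco1 was highest in secretory cells, whose share moved with this result, and the part of that share in it was not tested.

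The co-cultures were then compared. In late absorptive cells, no member was called in any of the 8 comparisons with Treg cells (34 tests of the 5 genes, excluding those of Rbp2 that were not tested). Of these, edgeR gave 1 and DESeq2 gave 1 unadjusted p under 0.05, DESeq2 called 0, and the lowest adjusted p in edgeR was 0.52. Without the filter on low counts, edgeR called 1, Rbp7 for anti-IFNγ against Treg cells (adjusted p = 0.0034). No share of all genes called is given without that filter, so this call is not a result about Rbp7. With the filter, few genes were called in these comparisons. The percentage of all genes called was 0.0768% for Treg cells against control, 0.297% for Treg cells plus anti-IL-10R against control, 0.0% for Treg cells plus anti-IFNγ and 0.0% for Treg cells plus both antibodies against control. Against Treg cells alone, it was 0.201% for anti-IFNγ, 0.0% for anti-IL-10R and 0.154% for both antibodies, and it was 0.0% for the interaction of the antibodies.

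**Figure D4:**
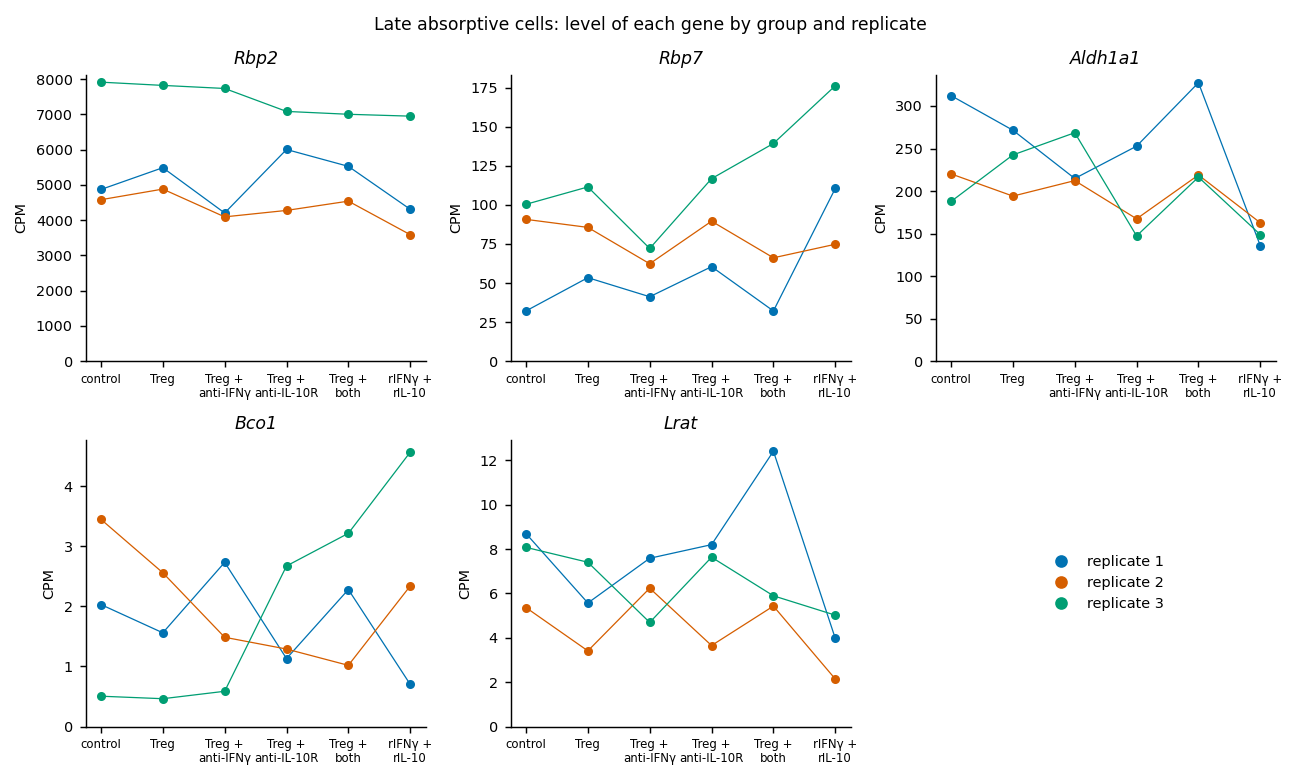
CPM of the 5 genes (panels) in late absorptive cells by group (x axis). Lines connect the values of 1 replicate and have no meaning of time. Replicate 3 has the highest Rbp2 in every group, and Rbp7 is highest with rIFNγ plus rIL-10 in replicates 1 and 3.

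Rbp2, chosen for its difference with anti-IFNγ, was at 5490, 4883 and 7824 CPM in late absorptive cells with Treg cells and at 4205, 4095 and 7737 CPM when anti-IFNγ was added. It was lower in 3 of 3 replicates, by 0.25 log2 units on average, although replicate 3 differed little. Over all cells, it was at 1148, 1097 and 1420 CPM with Treg cells and at 780, 587 and 1302 CPM with anti-IFNγ, a log2 difference of -0.56. The difference was thus smaller within late absorptive cells than over all cells. The share of late absorptive cells was 17.4%, 17.9% and 13.9% with Treg cells and 12.1%, 9.55% and 11.9% with anti-IFNγ. The part of this share in the difference of Rbp2 was not tested. Within the other classes, the log2 difference was -0.15 in early absorptive, -0.14 in TA-like, 0.13 in ISC-like and -0.11 in secretory cells.

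In the groups that received anti-IL-10R, Rbp2 in late absorptive cells was at 6006, 4278 and 7086 CPM with Treg cells plus anti-IL-10R and at 5528, 4541 and 7005 CPM with Treg cells plus both antibodies. The group with both antibodies also received anti-IFNγ, so its test may not be independent of the choice of Rbp2. Against control, the log2 fold change was 0.031 ± 0.093 with anti-IL-10R (edgeR adjusted p = 0.98, 95% interval -0.15 to 0.21) and -0.0077 ± 0.093 with both antibodies (adjusted p = 1.00, 95% interval -0.19 to 0.17). As a description, the log2 difference was 0.10 between Treg cells alone and control.

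Rbp7 in late absorptive cells was at 53.5, 85.6 and 111.5 CPM with Treg cells and at 41.3, 62.4 and 72.1 CPM with anti-IFNγ, which was lower in each replicate. The log2 fold change of -0.52 ± 0.25 did not pass the threshold (edgeR adjusted p = 0.52). Lrat ranged from 3.41 to 12.4 CPM over the co-cultures and the Lrat values with Treg cells were 5.57, 3.41 and 7.41 CPM, each below the control of the same replicate (-0.48 ± 0.30, edgeR adjusted p = 0.85). Aldh1a1 ranged from 147 to 327 CPM. Its lowest values among co-cultures were those of replicates 2 and 3 with Treg cells plus anti-IL-10R, 167 and 147 CPM, where the log2 fold change against control was -0.34 ± 0.17 (edgeR adjusted p = 0.68). Bco1 ranged from 0.463 to 3.21 CPM. Outside late absorptive cells, edgeR and DESeq2 also called 0, with 0 to 5 and 0 to 6 unadjusted p-values under 0.05 per class. No share of all genes called is given for these classes, so their counts are not a result about the 5 genes. Without the filter on low counts, edgeR called 6 there, among them Rbp2 in secretory cells for Treg cells plus anti-IL-10R against control (adjusted p = 7.2e-05). No share of all genes is given without the filter either, so these 6 calls are not a result about the 5 genes. With the filter, edgeR called none of the 10 secretory tests (lowest adjusted p = 0.75). Rbp2 was at 85.6, 179.3 and 62.2 CPM in control and at 41.3, 59.5 and 62.7 CPM with anti-IL-10R, so that replicate 3 did not fall. Lrat in TA-like cells was called for the same comparison with wider limits on cells (adjusted p = 0.028). With the settings used throughout, the lowest adjusted p in edgeR was 0.17, for Lrat over all cells with Treg cells plus anti-IL-10R against control (-0.59 ± 0.16), a group in which T cell genes were also detected, and their part in the result was not tested.

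The remaining genes of retinoid metabolism were described from a list of 49 genes ordered by role. This list was chosen with earlier results of these data known. Its counts beside those of all genes are therefore a description and not a test of the list. In late absorptive cells, 29 were tested in the comparison of rIFNγ plus rIL-10 with control. Of these, 12 were called, 10 of which fell and 2 rose, whereas 12.2% of all genes fell and 13.0% rose. The median log2 fold change was -0.26 over the 29 genes and -0.011 over all genes. Enzymes that interconvert retinol and retinal accounted for 6 of the 10 that fell, out of 13 tested, and none of the 13 rose. The 2 tested genes listed under retinal oxidation, Aldh1a7 and Aldh8a1, both fell, but Aldh8a1 had only 1 UMI in treated cells. Whether Aldh1a7 acts on retinal was not examined. Transport proteins fell in 2 of 3. None of the 3 tested receptors (Rara, Rxra and Rxrb), none of the 3 uptake genes and not the carotenoid-cleaving Bco2 was called. Transcripts of the retinoic acid-clearing Cyp26 enzymes were too few to be tested.

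**Figure D5:**
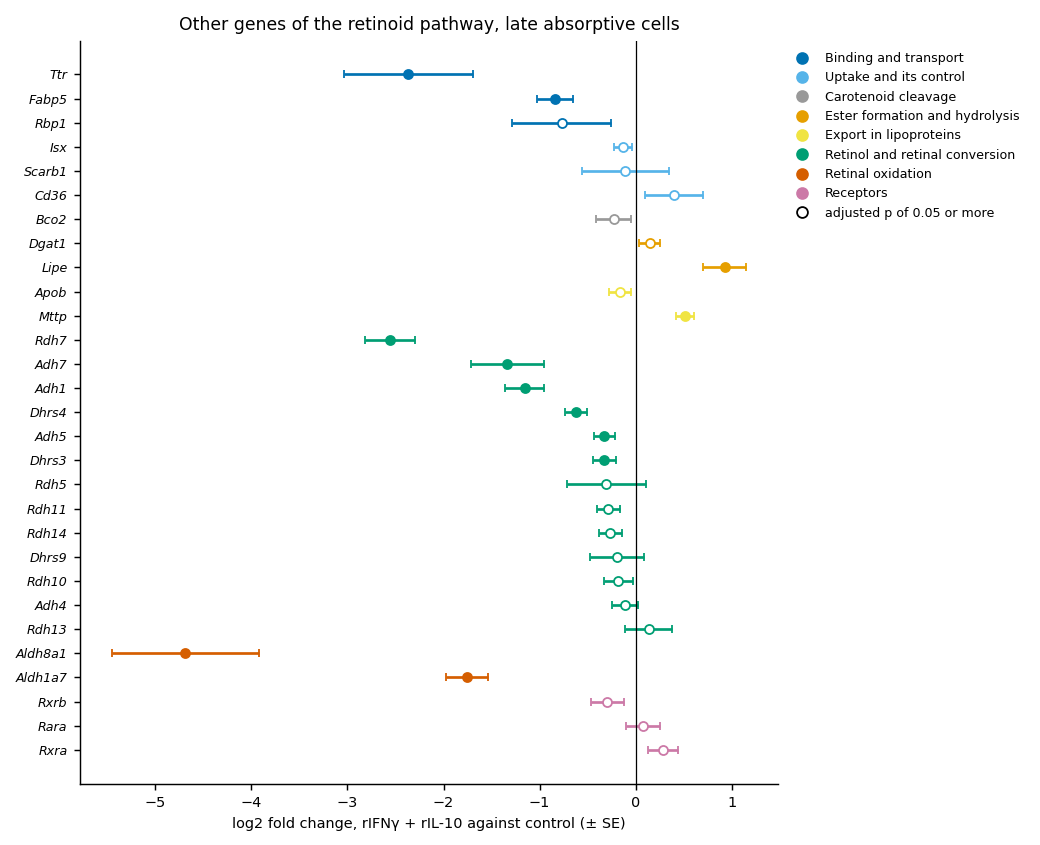
Log2 fold change with rIFNγ plus rIL-10 against control in late absorptive cells (x axis, ± SE) for the 29 tested genes of the retinoid list (y axis), colored by role. Filled points passed an adjusted p of 0.05 in edgeR. Aldh8a1 rests on 1 UMI in treated cells, so that its position is not a measured fold. Of the other called genes, Rdh7 and Ttr lie farthest to the left, and Ttr rests on few UMIs.

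Rdh7, a retinol dehydrogenase, fell from 98.9, 87.3 and 142 CPM to 12.9, 20.9 and 22.4 CPM (log2 fold change of -2.56 ± 0.26, edgeR adjusted p = 6.7e-07), a 5.88-fold decrease. Adh1, an alcohol dehydrogenase that oxidizes retinol, fell from 1368, 939 and 1124 CPM to 318, 632 and 583 CPM (-1.15 ± 0.20, edgeR adjusted p = 0.00032). Neither gene showed overlap between the groups. Adh7, of the same family, fell from 6.38, 6.51 and 6.56 CPM to 1.75, 2.92 and 4.11 CPM (-1.34 ± 0.38, edgeR adjusted p = 0.014), and the retinal reductase Dhrs4 fell from 243.5, 298 and 359 CPM to 139, 209 and 258 CPM (-0.62 ± 0.11, edgeR adjusted p = 0.00036).

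Aldh8a1, which can oxidize retinal, was counted with 20 UMIs of 8042127 in control and 1 UMI of 15873150 with cytokines, a ratio of 0.0253 (exact 95% interval 0.000611 to 0.158, counting error only). Ttr, which binds the retinol-binding protein of plasma, fell from 4.06, 2.68 and 6.06 CPM to 0.819, 0.974 and 0 CPM (-2.37 ± 0.67, edgeR adjusted p = 0.013). At these levels, few UMIs of Ttr were counted. Fabp5, which carries retinoic acid, fell by 0.84 on the log2 scale (adjusted p = 0.0025). In the opposite direction, Lipe, a hormone-sensitive lipase that hydrolyzes retinyl esters, rose from 7.83, 14.5 and 6.56 CPM to 21.1, 17.9 and 15.1 CPM (0.93 ± 0.23, edgeR adjusted p = 0.0050), and Mttp, which loads lipids onto chylomicrons, rose from 616, 445 and 507 CPM to 933.5, 581 and 778 CPM (0.51 ± 0.090, edgeR adjusted p = 0.00032). Of 10 alternatives, 3 lost the call of Lipe (log2 fold changes of 0.56 to 1.36 over all 10) and of Ttr (-3.39 to -1.958), 2 that of Adh7 (-1.53 to -0.97) and of Fabp5 (-1.19 to -0.58), and 1 that of Dhrs4 (-0.68 to -0.54) and of Mttp (0.46 to 0.65).

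In TA-like cells, 19 of 30 tested genes of the list were called, of which 16 fell and 3 rose, whereas 11.4% of all genes fell and 14.0% rose. In ISC-like cells, 15 of 26 were called and all 15 fell (10.9% of all genes fell and 12.2% rose). In early absorptive cells, 7 of 23 were called, of which 6 fell and 1 rose (4.36% of all genes fell and 5.8% rose). Because the list was chosen with earlier results known, these counts too are a description. Rdh7 fell by 2.90 on the log2 scale in TA-like cells (adjusted p = 1.5e-07) and by 2.12 in ISC-like cells (adjusted p = 0.0018), and Adh1 fell by 1.83 (adjusted p = 7.3e-06) and by 2.12 (adjusted p = 1.5e-07). In the co-cultures, 1 of the 29 genes was called in late absorptive cells, namely Ttr, for both antibodies against Treg cells alone. In that comparison, 0.154% of all genes were called. Ttr was at 9.12, 4.07 and 18.2 CPM with both antibodies and at 1.34, 1.19 and 1.39 CPM with Treg cells alone. The log2 fold change was 2.73 ± 0.55 (edgeR adjusted p = 0.043), and few UMIs stood behind it.

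Markers of enterocyte maturity moved in both directions in the same cells. Of 13 tested genes, 4 rose with cytokines, including the cytokeratin Krt20 (2.26 ± 0.23, edgeR adjusted p = 5.0e-07) and sucrase-isomaltase, Sis (0.72 ± 0.15, adjusted p = 0.0013). Another 4 fell, including the steroid and drug hydroxylase Cyp3a11 (-2.94 ± 0.41, adjusted p = 3.0e-05) and the fatty acid-binding protein Fabp1 (-0.61 ± 0.14, adjusted p = 0.0026). The part of cell maturity in the changes of retinoid genes was not tested.

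Finally, genes whose level varied with that of Rbp2 were listed. Over the 18 late absorptive sums, with each replicate centered, and among 7122 genes with a mean of 10 CPM or more, the highest Pearson correlations of log2 CPM with Rbp2 were those of Fabp2 (0.873), Cyp2b10 (0.832), Arg2 (0.809), Cyp4f14 (0.783) and Fbln1 (0.763). Higd2a, Sult6b2, C87436, Tmem37 and Il18 followed with 0.754 to 0.733. The sums share libraries and the group with rIFNγ plus rIL-10. Without that group, the 10 values lay between 0.809 for Fabp2 and 0.518 for Il18 over 15 sums. Aldh1a1 had a correlation of 0.583 with Rbp2, and Rbp7 one of -0.21.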

How the data were processed

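UMIs of genes and hashtags were deposited by the authors as counts, without normalization, for each barcode that Cell Ranger 7.0.0 called (GRCm38; Seurat 4.0.5 is also named in the submitters' notes). Reads of both sequencing runs were combined by the authors. Of 6 libraries, the one excluded by the authors was not used here. No other column was left out (0 unused).

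Hashtags were assigned with HTODemux (Seurat 5.3.0, quantile 0.99), and only singlets were kept. Further doublets were removed by a simulated-doublet score, which separated hashtag doublets weakly (area under the curve of 0.526 to 0.734 per library, where 0.5 is no separation). The study's limits on cells were applied: UMIs between 10000 and 90000, detected genes between 3000 and 10000, and a mitochondrial share not above 8.5%. Control cells were clustered with scanpy 1.11.5 (Leiden, leidenalg 0.10.2, resolution of 1.0, 3000 variable genes, 30 principal components), and clusters were named by marker lists. Progenitor and enterocyte markers were read as 1 lineage. Classes were passed on by the best Spearman correlation over 400 marker genes. This returned 83.2% of control cells to their own class.

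For each class, the cells of 1 group and 1 replicate were added up. Differences were tested with edgeR 4.0.16 in R 4.3.3 (quasi-likelihood, TMM, filterByExpr, all groups in one fit, replicate as a block, Benjamini-Hochberg adjustment over all genes tested, threshold of 0.05), after the procedure had been tested on simulated data. The 5 genes, the gene lists and the marker lists were chosen with earlier results of these data known. The 10 list genes named are those with the largest change among called genes in late absorptive cells. DESeq2 1.42.0, RLE factors, no count filter, no block, each replicate left out, wider limits on cells (3000 UMIs, 1000 genes and 15% mitochondrial UMIs), hashtag doublets only and a Leiden resolution of 0.5 were the alternatives.

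The replicate number pairs the groups because the labels give it to libraries that hold cells of all 6 groups. After removal of group means, the mean correlation in late absorptive cells was 0.381 within a replicate and -0.189 between replicates. Removal of group means ties the value between replicates to the value within a replicate, so the negative value adds no information of its own. The study describes the 3 replicates as independent experiments. Intervals of fold changes are normal 95% intervals from the SE of the edgeR fit, and only the interval given for Aldh8a1 covers counting error alone.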

Additional observations from a re-analysis of the deposited data

Results flagged for a closer look

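With the settings used throughout, the response to rIFNγ plus rIL-10 differed between classes for 2 genes, by the test of the difference itself in edgeR. This test was added after the values had been seen. At a Leiden resolution of 0.5, none of the differences listed here passed the threshold. For Rbp7, the log2 fold change in late absorptive cells exceeded that in ISC-like cells by 2.11, and that in TA-like cells exceeded it by 2.02. For Rbp2, the corresponding differences were 0.85 (late absorptive, 0.852) and 0.85 (TA-like, 0.8545). With wider limits on cells, only the Rbp7 difference between late absorptive and ISC-like cells was called (1.3, adjusted p = 0.013), and the Rbp2 difference between TA-like and ISC-like cells was 0.033 (adjusted p = 1.00). With only hashtag doublets removed, both differences from late absorptive cells were called (1.56 for Rbp7, adjusted p = 0.0074, and 0.67 for Rbp2, adjusted p = 0.039), whereas those from TA-like cells were 1.14 for Rbp7 (adjusted p = 0.17) and 0.36 for Rbp2 (adjusted p = 0.74). The cause was not tested.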

How the results depend on the processing

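Among the 5 genes, the number called with rIFNγ plus rIL-10 was 3 over all cells, 4 in late absorptive, 2 in early absorptive, 3 in TA-like and 3 in ISC-like cells. Without the replicate block, it was 1, 1, 0, 1 and 1. The numbers of all genes called, in the same order, went from 5428, 2622, 972, 3153 and 2774 to 1400, 727, 206, 626 and 644. In late absorptive cells, the log2 fold changes without the block were -0.26 for Rbp2, 0.64 for Rbp7, -0.69 for Aldh1a1 and -1.09 for Lrat. DESeq2 called 2 in late and 0 in early absorptive cells, where it called 1958 of 10423 and 789 of 9573 genes tested. A Leiden resolution of 0.5 gave 1 in ISC-like cells, where the log2 fold change of Rbp7 turned from -1.33 to 0.45, and gave no early absorptive class. At that resolution, 3894 of 13176 genes tested were called in ISC-like cells. Without 1 replicate, the number ranged from 1 to 2 over all cells and in late absorptive, from 0 to 1 in early absorptive, from 1 to 4 in TA-like and stayed at 3 in ISC-like cells. Of the 12 called genes of the retinoid list in late absorptive cells, 4 were called without the block and 6 to 9 without 1 replicate. Rdh7, Adh1 and Aldh1a7 were called under all 10 alternatives and Aldh8a1 under all 9 that tested it. Lrat was called under every alternative over all cells (9), in TA-like (11) and in ISC-like cells (10), and under 7 of 10 in late and 4 of 9 in early absorptive cells. Over all genes in late absorptive cells, 941 were called without replicate 1, 2738 without replicate 2 and 1308 without replicate 3. Without 1 replicate, all genes called ranged from 2647 to 4275 over all cells and from 361 to 1067 in early absorptive cells. The range was 1591 to 2853 in TA-like and 1449 to 2542 in ISC-like cells. The difference in the share of late absorptive cells between Treg cells plus both antibodies and control was -1.09 percentage points and ranged from -2.19 to 0.5 without 1 replicate. Goblet/Paneth-like cells were too few for a test of their own, so that the alternatives planned for them were not run. Of the 5 genes, Bco1 and Lrat had the fewest UMIs in absorptive cells. In control, 60 UMIs of Lrat and 17 of Bco1 were counted in late absorptive cells, and 56 and 15 in early absorptive cells. The causes of these changes were not tested.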
